A study of Mus musculus with 12 samples.

Results

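The genes described here read the sterol content of liver cells and govern how much cholesterol they take up and move. The 8 genes were chosen by symbol, as Srebf2, Scap, Insig1, Insig2, Mylip, Stard4, Scarb1 and Nr1h3, and their probes were taken from the table of non-normalized intensities. A probe was kept where its deposited detection p was under 0.05 on at least 3 of 12 arrays. Such a value commonly ranks a probe against the background of its own array, but how these values were made is not given. The 8 genes had 18 probes, of which 14 were kept, and 7 of the 8 genes had a kept probe and were tested among 9747 genes in all. Both Mylip probes were detected on 0 arrays, so Mylip, which encodes a ubiquitin ligase that marks lipoprotein receptors for degradation, has no measured level here.

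The series measured liver RNA of male C57BL/6 mice aged 8 weeks with 12 Illumina bead arrays, 3 for each of 4 groups. The control group (Cont) is labelled as given neither compound. A further group (T3) received L-T3, or liothyronine, the active thyroid hormone, by daily intraperitoneal injection for 3 days. Another (xct_cnt) received XCT790, an inverse agonist of the estrogen-related receptor alpha (ESRRA), for 4 days, and the last (xct_T3) received XCT790 for 4 days with L-T3 on the last 3. Strain, sex, age and tissue were shared by every group. The labels used here give no dose, do not say whether controls were injected, and do not say that each array is a separate mouse, so the p-values reflect only variation among these arrays, part or all of which may be technical.

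When sterol is scarce in the membrane of the endoplasmic reticulum, SCAP escorts the SREBP precursors, one of which is encoded by Srebf2, to the Golgi, where proteases release a factor that turns on genes of cholesterol synthesis and lipoprotein uptake. When sterol is plentiful, the INSIG proteins hold SCAP back, and oxysterols activate LXR alpha (Nr1h3), a nuclear receptor that turns on sterol export and, in mouse liver, conversion to bile acid. STARD4 carries cholesterol between membranes, and SR-BI (Scarb1) takes cholesterol from high-density lipoprotein into hepatocytes. Thyroid hormone is known to lower blood cholesterol and, in rodent liver, to raise the Srebf2 transcript.

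The windows of 250 bases before the RefSeq start sites of Srebf2, Insig1 and Insig2 are shown because Srebf2 and Insig2 carry the changes described below and Insig1 is the near relative of Insig2 in the same feedback step. They are RefSeq sequences on GRCm38.p6, given 5′ to 3′ on the strand of the gene, with motif matches in capitals. The Srebf2 window lies at chr15:82147019-82147268 on the plus strand, the Insig1 window at chr5:28071162-28071411 on the plus strand, and the Insig2 windows at chr1:121332590-121332839 and chr1:121328025-121328274 on the minus strand.
Srebf2: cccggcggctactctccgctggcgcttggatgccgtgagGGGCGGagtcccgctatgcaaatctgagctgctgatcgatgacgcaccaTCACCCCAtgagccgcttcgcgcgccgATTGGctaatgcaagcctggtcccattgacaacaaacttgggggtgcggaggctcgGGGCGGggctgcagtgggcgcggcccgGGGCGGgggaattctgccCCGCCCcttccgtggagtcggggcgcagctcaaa
Insig1: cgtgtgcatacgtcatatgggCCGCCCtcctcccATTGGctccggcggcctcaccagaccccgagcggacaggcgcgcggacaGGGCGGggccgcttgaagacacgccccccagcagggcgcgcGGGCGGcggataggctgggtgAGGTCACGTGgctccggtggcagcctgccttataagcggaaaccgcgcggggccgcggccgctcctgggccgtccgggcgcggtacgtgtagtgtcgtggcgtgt
Insig2, start site 1: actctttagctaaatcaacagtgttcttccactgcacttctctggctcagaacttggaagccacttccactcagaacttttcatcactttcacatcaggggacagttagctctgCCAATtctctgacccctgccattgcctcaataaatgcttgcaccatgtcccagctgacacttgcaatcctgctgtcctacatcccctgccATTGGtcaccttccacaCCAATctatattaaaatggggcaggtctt
Insig2, start site 2: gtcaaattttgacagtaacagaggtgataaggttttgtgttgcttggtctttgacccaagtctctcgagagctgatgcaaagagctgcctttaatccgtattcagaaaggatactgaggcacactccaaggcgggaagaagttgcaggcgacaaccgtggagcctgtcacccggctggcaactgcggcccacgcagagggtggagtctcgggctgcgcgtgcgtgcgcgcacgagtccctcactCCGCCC

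The letters searched, on both strands, were TCACNCCAC and TCACCCCA (forms of the sterol regulatory element), CCAAT (the CCAAT box), GGGCGG (the GC box), AGGTCA (the core of nuclear receptor sites, thyroid hormone receptor and LXR included) and CACGTG (an E box). TCACCCCA was added after the Srebf2 window had been read. Of 32851 windows of the same length in the RefSeq table, 1.05% held TCACNCCAC, 1.34% TCACCCCA, 33.8% CCAAT, 32.7% GGGCGG, 14.0% AGGTCA and 6.02% CACGTG. Counting the base before the start site as -1, the Srebf2 window held TCACCCCA from -162 to -155, CCAAT on the reverse strand from -135 to -131, and 4 GC boxes that begin at -211, -79, -52 and -34, the last on the reverse strand. The Insig1 window held a reverse CCAAT from -216 to -212, GC boxes that begin at -229, -167 and -126, and AGGTCA from -105 to -100, which overlaps CACGTG from -101 to -96. The Insig2 windows differed in their matches: start site 1 had CCAAT at -136, -46 (reverse strand) and -29, start site 2 a reverse GC box from -6 to -1, and a further window, not printed, a GC box from -128 to -123. Windows of 6 of the 8 genes, 10 in all, are covered here. None of them held TCACNCCAC, or 2 AGGTCA in direct repeat with a spacer of 4 bases, which 0.0152% of all windows held. A match describes letters and is not a site, and the lack of one says only that these letters are not in that window.

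On each array 31.9% to 35.6% of probes were detected, and the median non-normalized intensity was 78.0 to 92.3. Before scaling, the median log2 intensity of kept probes was 6.82, 7.12 and 6.96 in controls and 7.04, 6.94 and 6.93 with T3. It was 6.64, 6.65 and 7.27 with XCT790 and 6.76, 6.67 and 6.51 with both. XCT790 replicate 3 was thus the brightest array, and the other arrays with XCT790 lay below all arrays without it. Arrays of a group correlated at 0.989 to 0.992 over the 9747 genes tested. Levels below are log2 intensities after background correction and quantile normalization, group values are means ± SD with n = 3, and a gene with several kept probes stands by its brightest. Differences are log2 differences from limma with their standard error (SE), and a gene is called where the Benjamini-Hochberg adjusted p over all 9747 genes is under 0.05. Hepatocyte genes Ttr, Apoa1, Apob, Serpina1a, Cyp2e1 and Hnf4a were detected on 12 of 12 arrays and Alb on 7, while the probes of Tat and Fgb were detected on 0 and Tf was not analysed here. Thrsp, a known thyroid hormone target in liver, was higher by 2.59 with T3 than in controls (adjusted p = 2.28e-06). It was also higher by 1.23 with XCT790 alone (adjusted p = 0.00319). Dio1, the other hormone target checked, was higher by 2.13 with T3 (adjusted p = 3.16e-06). With XCT790 alone Dio1 gave -0.19 and was not called (adjusted p = 0.604).

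Macrophage markers differed between the groups. For T3 against control 16.1% of all genes were called. Of 12 macrophage markers in the list 10 were tested, and 7 were higher with T3 than in controls after adjustment, Timd4 and Cd163 by 1.25 and 1.41 among them. Their summed linear intensity per array was 2680 to 4480 in controls, 5340 to 6430 with T3, 2660 to 3200 with XCT790 and 3800 to 6480 with both. The 12 endothelial markers summed to 6790 to 8530, 8780 to 9580, 7280 to 8130 and 8270 to 9090 in the same order, and 0 of 12 were called for T3 against control. The 7 tested stellate cell markers summed to 6450 to 7180, 6690 to 7800, 6950 to 7320 and 6720 to 7400. The 7 tested hepatocyte markers summed to 123000 to 126000, 117000 to 127000, 119000 to 123000 and 113000 to 115000. The arrays with both compounds thus had the lowest hepatocyte sums. Of 6 cholangiocyte markers 2 were tested, Sox9 and Krt7. Their sum was 301 to 476 in controls, 197 to 244 with T3, 312 to 395 with XCT790 and 290 to 393 with both, and Sox9 fell by 0.98 with T3 (adjusted p = 0.00533). Krt19, Epcam and Cldn4, which also mark cholangiocytes, were detected on 0 arrays, and 1 of 10 lymphocyte markers was tested. In whole liver, fewer cells of a type and less RNA per cell cannot be told apart, and the part of these markers in the results below was not tested.

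Srebf2 rose with T3 whether or not XCT790 was given. This gene (chr15:82147269-82205379) encodes SREBP-2, the factor known for turning on cholesterol synthesis. Its log2 intensity was 7.99, 7.69 and 7.76 in the controls, 8.89, 8.66 and 8.87 with T3, 8.44, 7.90 and 7.66 with XCT790, and 8.91, 8.97 and 8.95 with both. All 6 arrays with T3 lay above all 6 without, at 8.66 to 8.97 against 7.66 to 8.44, and 12.0% of all genes tested had such a separation in either direction.

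The difference was 0.99 for T3 against control (SE 0.169, adjusted p = 0.00184), a ratio of 1.99. In mice given XCT790 it was 0.94 (SE 0.169, adjusted p = 0.00298), and with both compounds against control it was 1.13 (SE 0.169, adjusted p = 0.000699), a ratio of 2.19. XCT790 by itself differed from control by 0.19 (adjusted p = 0.639), with an interval at 95% from -0.18 to 0.55. The responses to T3 with and without XCT790 differed by -0.05 (adjusted p = 0.959), with an interval from -0.57 to 0.47. The second Srebf2 probe, adjusted over all kept probes, was higher by 0.80 with T3 (adjusted p = 0.00488), by 0.64 with T3 in mice given XCT790 (adjusted p = 0.0204) and by 0.68 with both (adjusted p = 0.0123). The calls of Srebf2 for these 3 comparisons held in all 21 alternative settings run, which include leaving out each array in turn.

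**Figure D1:**
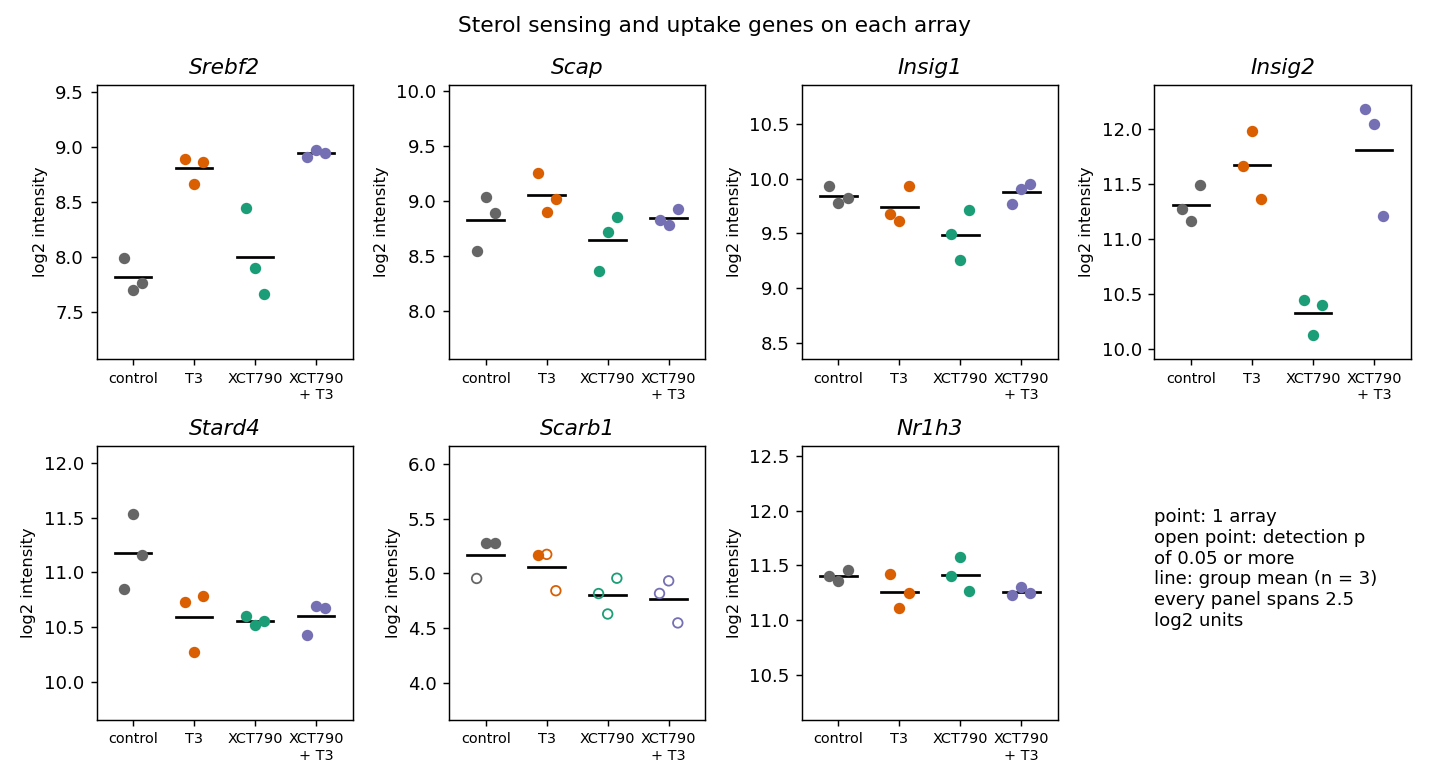
Log2 intensity (y axis) of the 7 tested sterol sensing and uptake genes on each of the 12 arrays, by group (x axis). Points are arrays, filled where detected, and lines are group means (n = 3). The 6 Srebf2 points with T3 sit at 8.66 to 8.97, above the 6 without, and the 3 Insig2 points with XCT790 sit at 10.12 to 10.44, below all others.

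Scap, whose protein escorts SREBP from the endoplasmic reticulum (chr9:110333288-110384949), was called in none of the 6 comparisons. By its brighter probe, levels overlapped between the groups compared. They were 8.82 ± 0.252 in controls, 9.06 ± 0.184 with T3, 8.64 ± 0.257 with XCT790 and 8.84 ± 0.073 with both. T3 against control gave 0.23 (SE 0.157, adjusted p = 0.364), with an interval from -0.11 to 0.58. The second Scap probe had the opposite sign there, at -0.21 (adjusted p = 0.460). For XCT790 in mice given T3 the first probe gave -0.21 (adjusted p = 0.617). There the second gave 0.56 (unadjusted p = 0.0051, adjusted p = 0.223), so the gene has no settled direction.

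Insig2 had the widest range of group means of the 7 genes, lowest with XCT790 alone and highest with both compounds. INSIG2 (chr1:121304353-121332662) is an anchor that keeps SCAP in the endoplasmic reticulum, and in mouse liver it is known to be transcribed from alternative start sites. Its log2 intensity was 11.27, 11.16 and 11.49 in controls, 11.67, 11.98 and 11.36 with T3, 10.44, 10.12 and 10.40 with XCT790, and 12.19, 12.04 and 11.21 with both. The XCT790 arrays were the lowest 3 of the 12, while the array groups of control, T3 and both compounds overlapped, since replicate 3 of the combined group lay among the controls.

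XCT790 lowered Insig2 by 0.99 against control (SE 0.232, adjusted p = 0.0345), a ratio of 0.505. In mice given XCT790, T3 raised it by 1.49 (SE 0.232, adjusted p = 0.00120), a ratio of 2.81. T3 against control gave 0.36 (SE 0.232, adjusted p = 0.334), and both compounds against control gave 0.51 (SE 0.232, adjusted p = 0.156). The difference between both T3 responses was 1.13 (SE 0.328, unadjusted p = 0.00498, adjusted p = 0.171), so it did not pass the threshold. Without replicate 3 of the combined group that difference was 1.43 (adjusted p = 0.0347), while its adjusted p over the 20 alternatives ran from 0.0347 to 0.452. Without the same array both compounds against control gave 0.81 (adjusted p = 0.0138, with a range of 0.0138 to 0.570 over 21 alternatives). The fall with XCT790 was called in 13 of 21 alternatives, with adjusted p from 0.00692 to 0.123, and was lost when any of the 6 arrays of those groups was left out. The rise with T3 in mice given XCT790 was called in 21 of 21.

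Except for XCT790 in mice given T3, the other kept Insig2 probes had the same signs. With XCT790 they were lower by 0.85 and 1.15 (the differences were -0.85 and -1.15, adjusted p = 0.0565 and 0.0557). With T3 in mice given XCT790 they rose by 1.38 and 2.08 (adjusted p = 0.00151 and 0.000626). The dimmest of the 3 probes thus showed the widest difference, at 6.81, 6.95 and 7.07 with XCT790 and 9.44, 9.23 and 8.40 with both compounds. For XCT790 in mice given T3 the brightest probe gave 0.14, and the others gave -0.09 and 0.30 (adjusted p = 0.912 and 0.720). The probe at -0.09 was highest with T3 alone, at 11.42 ± 0.381 against 11.33 ± 0.445 with both compounds.

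Insig1 (chr5:28071412-28078662), which encodes the other SCAP anchor and is a known target of SREBP-2, was likewise lowest with XCT790 alone, over a narrower range. Its log2 intensity was 9.93, 9.78 and 9.82 in controls, 9.68, 9.62 and 9.94 with T3, 9.49, 9.26 and 9.71 with XCT790, and 9.77, 9.91 and 9.95 with both. The XCT790 arrays lay below all controls and below all arrays of the combined group, and the other 3 groups overlapped.

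None of its comparisons was called by the probe that stands for the gene. XCT790 against control gave -0.35 (SE 0.129, adjusted p = 0.158), T3 in mice given XCT790 gave 0.39 (SE 0.129, adjusted p = 0.0638), and T3 against control gave -0.10 (SE 0.129, adjusted p = 0.661). The difference between both T3 responses was 0.49 (SE 0.182, adjusted p = 0.295). For XCT790 against control the other probes gave -0.39 and -0.52 (adjusted p = 0.0930 and 0.0899), and the mean over the probes was called at -0.42 (adjusted p = 0.0308, with a range of 0.0308 to 0.435 over 21 alternatives). The second probe was called for T3 in mice given XCT790, at 0.43 (adjusted p = 0.0278), and the third gave 0.47 (adjusted p = 0.0658). That comparison passed in 5 of 21 alternatives, among them the mean over the probes of the gene (0.43, adjusted p = 0.0117) and the fit without XCT790 replicate 3 (0.50, adjusted p = 0.0275), and adjusted p over all of them ran from 0.0117 to 0.664.

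**Figure D2:**
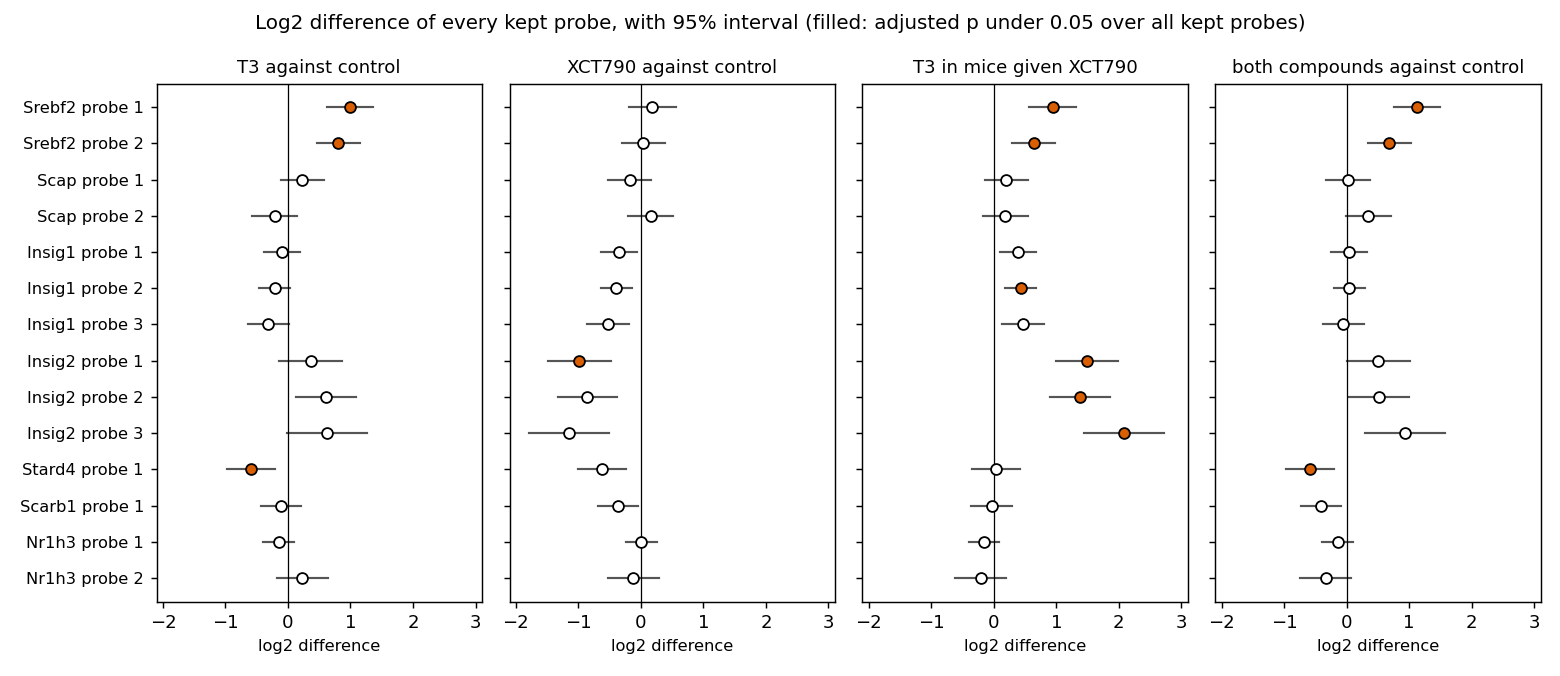
Log2 difference (x axis) of each of the 14 kept probes of the 7 genes (y axis) in 4 comparisons, with bars for intervals at 95% and filled points for adjusted p under 0.05 over all kept probes. All 3 Insig2 probes lie left of 0 for XCT790 against control and right of 0 for T3 in mice given XCT790. The Scarb1 probe was not detected in the XCT790 groups, so its points there show intensity differences near background.

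Stard4, which encodes a carrier of cholesterol between membranes, was highest in the controls. The gene lies at chr18:33199138-33213862 and had 1 probe. Its log2 intensity was 10.85, 11.54 and 11.16 in controls, 10.73, 10.28 and 10.79 with T3, 10.61, 10.52 and 10.56 with XCT790, and 10.43, 10.70 and 10.68 with both. All 9 arrays with a compound lay below the 3 controls, and the 3 treated groups overlapped around means of 10.60, 10.56 and 10.60.

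Stard4 fell by 0.58 with T3 (SE 0.175, adjusted p = 0.0394), a ratio of 0.667, and fell by 0.58 with both compounds against control (SE 0.175, adjusted p = 0.0370). XCT790 against control gave -0.62 (SE 0.175, adjusted p = 0.0686), which did not pass. T3 in mice given XCT790 gave 0.04 (SE 0.175, adjusted p = 0.910), and the difference between both T3 responses was 0.63 (SE 0.247, adjusted p = 0.334). Its 3 comparisons with control share the same 3 arrays, of which replicate 2, at 11.54, was the highest of the 12. Without that array the T3 difference was -0.41 (adjusted p = 0.143). The T3 call was also lost without control replicate 3, T3 replicate 1 or 2, any XCT790 array or replicate 2 of the combined group. That for both compounds was lost without control replicate 2 or 3, XCT790 replicate 2 or any array of the combined group, and XCT790 against control passed without control replicate 1 or T3 replicate 2. The T3 call held in 9 of 21 alternatives (adjusted p from 0.0145 to 0.149), that for both compounds in 12 of 21 (0.00912 to 0.141), and XCT790 against control passed in 5 of 21 (0.0258 to 0.212).

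Scarb1 (chr5:125277087-125341094), the receptor for uptake of cholesterol from high-density lipoprotein, was measured near background. Its kept probe was detected on 2 control arrays, 1 T3 array and 0 arrays with XCT790, and the other probe on 1 array. The measured means were 5.17 ± 0.188 in controls, 5.06 ± 0.189 with T3, 4.80 ± 0.164 with XCT790 and 4.77 ± 0.197 with both. In the XCT790 groups the probe was below detection, so its level there is bounded only by the lowest signal among detected probes, which averaged 5.25 on the same scale. That bound lies above the control mean, and no fold is given. The adjusted p was 0.670 for T3 against control, 0.195 for XCT790 against control and 0.0746 for both compounds against control. The probe was kept through arrays without XCT790 and was below detection with it. The adjusted p values of the XCT790 groups are therefore no test of a measured difference.

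Nr1h3 (chr2:91184061-91202829), which encodes LXR alpha, had the narrowest range of group means of the 7 genes. It measured 11.41 ± 0.0472 in controls, 11.26 ± 0.153 with T3, 11.42 ± 0.152 with XCT790 and 11.26 ± 0.0379 with both. T3 against control gave -0.15 (SE 0.107, adjusted p = 0.401), with an interval from -0.38 to 0.09, and XCT790 against control gave 0.01 (adjusted p = 0.979), with an interval from -0.22 to 0.24. The second, dimmer probe gave 0.23 for T3 (adjusted p = 0.483), the opposite sign, and -0.57 for XCT790 in mice given T3 (unadjusted p = 0.0103, adjusted p = 0.263). Both compounds against control gave -0.15 (adjusted p = 0.387) by the first probe. Under median scaling, which moved all genes down there, it was called at -0.45 (adjusted p = 0.0460, with a range of 0.0460 to 0.565 over 21 alternatives).

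Counted over the 7 tested genes, T3 against control called 2, Srebf2 up and Stard4 down, where 16.1% of all genes were called. The groups did not overlap for the same 2 genes, against 34.8% of all genes. XCT790 against control called 1, Insig2, against 4.44% of all genes, and its groups did not overlap for Insig1, Insig2 and Stard4, against 21.9%. T3 in mice given XCT790 called 2, Insig2 and Srebf2, against 15.2%, and the groups did not overlap for those and Insig1, against 32.8%. Both compounds against control called Srebf2 and Stard4, against 18.7%, and 4 genes, Srebf2, Stard4, Scarb1 and Nr1h3, did not overlap, against 35.5%. Scarb1 passed the detection filter through arrays without XCT790 and was below detection on all 3 arrays with both compounds, so its place in that count is no measured difference.

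XCT790 in mice given T3 called 0 of the 7 genes, and 9 of all 9747 (0.0923%). By the brightest probes, 1242 genes had an unadjusted p under 0.05, with 0 of the 7 among them. Among those probes only Srebf2 had groups that did not overlap there, at a difference of 0.14 (adjusted p = 0.793), against 19.3% of all genes. Other kept probes of Scap, Nr1h3 and Insig1 had an unadjusted p of 0.0051, 0.0103 and 0.0453 there. None of these was called (adjusted p = 0.223, 0.263 and 0.389). The interaction, which compares both T3 responses, called 0 of the 7 and 45 of all genes (0.462%), with 1181 of all genes and 3 of the 7, Insig1, Insig2 and Stard4, at an unadjusted p under 0.05. The median difference of the 7 genes was -0.10 for T3, -0.35 for XCT790 and 0.20 for T3 in mice given XCT790, beside -0.01, -0.01 and 0.00 for all genes. The medians of comparisons with XCT790 arrays count Scarb1 (-0.37 for XCT790), which was below detection on those arrays. Its value there is no measured difference.

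Of 20 enzymes of cholesterol synthesis, genes that SREBP-2 is known to turn on, 15 were tested. Of all genes, 16.1% were called for T3 and 4.44% for XCT790 against control. With T3 alone 4 were higher and 0 lower, namely Sqle by 1.25 (SE 0.236, adjusted p = 0.00354), Hsd17b7 by 0.85, Mvd by 0.86 and Msmo1 by 0.69, and the median of the 15 was 0.17. With XCT790, 0 were higher and 5 lower: Sqle fell by 1.22 (SE 0.236, adjusted p = 0.0136), Mvd fell by 1.18, Sc5d fell by 0.86, Dhcr7 fell by 0.79 and Msmo1 fell by 0.74, with a median of -0.61. These encode the enzyme that makes squalene epoxide (Sqle), a mevalonate pathway decarboxylase (Mvd) and later steps from lanosterol to cholesterol.

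In mice given XCT790, T3 raised 12 of the 15 enzymes and lowered 0, with a median of 1.21, led by Sqle at 2.91 (SE 0.236, adjusted p = 7.36e-06) and Mvd at 2.77 (SE 0.208, adjusted p = 3.78e-06). With both compounds against control 9 were higher and 0 lower, with a median of 0.57. Of all genes, 15.2% and 18.7% were called in these comparisons, in that order. XCT790 in mice given T3 called 0, against 0.0923% of all genes, with a median of 0.44. The difference between both T3 responses had a median of 1.12 and called 2, Mvd at 1.90 (adjusted p = 0.0178) and Cyp51 at 1.12 (adjusted p = 0.0430). Of all genes 0.462% were called there. Over the alternatives the calls ran from 2 to 6 enzymes for T3, 2 to 8 for XCT790, 5 to 11 for both compounds and 0 to 10 for the interaction, and stayed at 12 for T3 in mice given XCT790. Against control, 15 of the 15 enzymes were at a lower value with XCT790, whereas in mice given T3 13 of the 15 were at a higher value with XCT790 than without. The mean of Insig2 was likewise lowest with XCT790 alone. It was highest with both compounds, but Insig2 was not called for XCT790 in mice given T3 (0.14, adjusted p = 0.848). Under median scaling that Insig2 difference was -0.088. Srebf2 in the XCT790 arrays was at 8.00 ± 0.401 against 7.81 ± 0.156 in controls.

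Of 23 genes for SREBP processing and sterol-regulated degradation, 17 were tested. Of all genes, 16.1% were called for T3, 4.44% for XCT790 and 15.2% for T3 in mice given XCT790. For both compounds against control the share was 18.7%, and for the interaction 0.462%. With T3, 0 were higher and 2 lower: Srebf1, which encodes SREBP-1, the factor known for fatty acid synthesis, fell by 1.70 (SE 0.135, adjusted p = 5.70e-06), and Erlin1, part of a complex for degradation in the endoplasmic reticulum, fell by 1.21 (SE 0.124, adjusted p = 4.90e-05). Srebf1 and Srebf2 therefore moved in opposite directions with T3. With XCT790, 1 was lower, Erlin1 by a difference of -0.66 (adjusted p = 0.0112), and 0 were higher. In mice given XCT790, T3 lowered 3, namely Srebf1 (-1.72, adjusted p = 5.44e-06), the sterol-binding membrane protein gene Pgrmc1 (-0.66, adjusted p = 0.0330) and the ubiquitin ligase gene Rnf139 (-0.51, adjusted p = 0.0472). Both compounds against control called 4 lower and 0 higher, Srebf1, Erlin1, Pgrmc1 and the lipid droplet protein gene Cideb (-0.36, adjusted p = 0.0264). The difference between both T3 responses called Erlin1 (0.93, adjusted p = 0.0430), and 0 genes of the list were called there in 14 of 20 alternatives. The genes called lower numbered 1 to 3 over the alternatives for T3 in mice given XCT790, 0 to 1 for XCT790 and 3 to 6 for both compounds. The medians of the list were -0.05 for T3, -0.03 for XCT790 and -0.12 for T3 in mice given XCT790.

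Of 23 genes for lipoprotein uptake and sterol movement 15 were tested, and the others were not analysed here. The shares called over all genes were 16.1% for T3, 4.44% for XCT790 and 15.2% for T3 in mice given XCT790. For both compounds against control the share was 18.7%, and for the interaction 0.462%. With T3, Sort1, a sorting receptor of the Golgi, was higher by 0.42 (adjusted p = 0.00881), Osbpl9, of the oxysterol-binding protein family, by 0.49 (adjusted p = 0.0116), and Lipa, the lysosomal lipase that frees cholesterol from its esters, fell by 0.64 (adjusted p = 0.00239). With XCT790, Sort1 fell by 0.95 (adjusted p = 0.000319) and Stard5, another carrier of the STARD4 family, was higher by 0.52 (adjusted p = 0.0169). In mice given XCT790, T3 raised Sort1 by 1.31 (SE 0.0942, adjusted p = 3.03e-06), and Sort1 was also the 1 gene of this list for which the T3 responses differed (0.89, adjusted p = 0.0157). With both compounds against control Sort1 was higher by 0.36 (adjusted p = 0.0207) and Scp2, a sterol carrier, fell by 0.39 (adjusted p = 0.0166). The direction of Sort1 in the comparisons of T3, XCT790 and T3 in mice given XCT790 was that of Insig2, while the list medians were 0.01, -0.08 and -0.03. For both compounds against control 0 were called higher in 6 of 21 alternatives, median scaling among them, and 0 lower in 3. For XCT790, Stard5 was lost in 6 of 21, and for the interaction 0 were called in 3 of 20. Under median scaling Sort1 and Osbpl9 were not called for T3 and the T3 median was -0.05.

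The LXR list held 18 genes besides Nr1h3, of which 13 were tested. Over all genes, 16.1% were called for T3 and 4.44% for XCT790 against control. The share was 15.2% for T3 in mice given XCT790 and 18.7% for both compounds against control. With T3, 4 were higher and 2 lower. Cyp7a1, whose enzyme sets the rate at which bile acid is made, was higher by 2.06 (SE 0.317, adjusted p = 0.000949), Abcg8 by 0.91 (adjusted p = 0.00499) and Abcg5 by 0.85 (adjusted p = 0.00211), the last 2 being the partners of the transporter that exports sterol into bile. The other call upward was Ncoa5, and those downward were Srebf1 and Lpcat3. With XCT790 1 was higher, Cyp7a1 by 1.48 (adjusted p = 0.0226), and in mice given XCT790 T3 raised Abcg5 by 0.58 (adjusted p = 0.0201) and lowered Srebf1. Both compounds against control called Cyp7a1, Abcg5 and Abcg8 up and Srebf1 down. Srebf1 stands in this list and in that of SREBP processing. The call of Cyp7a1 for XCT790 was lost in 5 of 21 alternatives and that of Abcg5 for T3 in mice given XCT790 in 4. The list median was 0.05 for T3 and 0.04 for XCT790, and under median scaling it was -0.0050 and -0.0030.

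Of 10 genes around uptake of cholesterol from high-density lipoprotein 7 were tested. T3 and XCT790 against control each called 0, where 16.1% and 4.44% of all genes were called. Pdzk1, an adaptor that holds SR-BI at the membrane, was at -0.33 with T3 (SE 0.113, adjusted p = 0.0655). Scarb2, a lysosomal relative of Scarb1, was the 1 call with T3 in mice given XCT790, at -0.47 (adjusted p = 0.0461), and 0 genes of the list were called there in 13 of 21 alternatives. Of all genes 15.2% were called there.

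**Figure D3:**
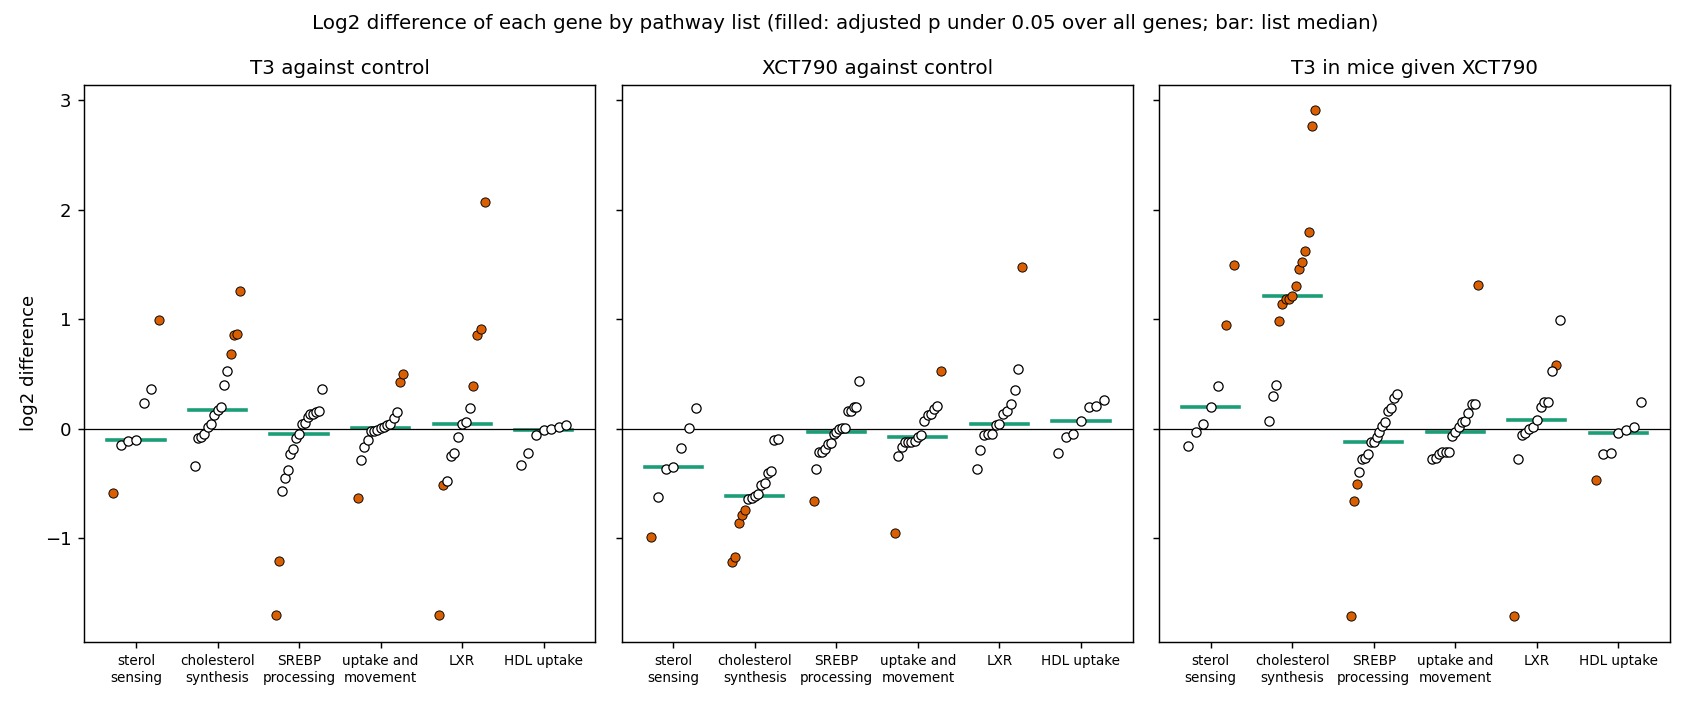
Log2 difference (y axis) of each tested gene by list (x axis) in 3 comparisons. Points are genes, filled where adjusted p is under 0.05 over all genes, and bars are list medians. In the panel of T3 in mice given XCT790, 12 of 15 synthesis enzymes are filled and above 0, and the list median is 1.21.

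The genes most like each sensing gene across the 12 arrays, by Pearson correlation of log2 intensity, are given as a description, since the arrays share groups. For Srebf2 they were Coq10a (0.969), Faap100 (0.963) and Slc6a12 (0.962). For Insig2 they were Ergic1 (0.95), Smagp (0.938) and Snx24 (0.938), and for Stard4 Gnpda2 (0.929), Plpp6 (0.919) and Adgrf1 (0.914). Scap, Insig1, Scarb1 and Nr1h3 had their closest genes at 0.868 (Eno1b), 0.861 (Mansc1), 0.912 (Elovl2) and 0.922 (Rgl2).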

How the data were processed

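The authors deposited, per the file headers, a table of non-normalized probe intensity with a detection p-value per probe for each of 12 liver arrays, and a matrix of processed intensity with the same quantiles on every array. The submitters' processing notes name Partek 6.6, with no step. The sources used here do not say how detection p-values were made.

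With limma 3.58.1 in R 4.3.3, background was removed by the normexp method (estimated from detection p, offset 16), and quantile-normalized values were taken to log2. The offset understates differences of dim probes. Probes with detection p under 0.05 on at least 3 arrays were kept, 17218 of 45281. In the platform annotation 34885 probes had 1 symbol, 18 had several and 10378 had none; 34807 matched RefSeq by Entrez number, which changed 0 symbols. The brightest kept probe stood for each of 9747 genes.

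Means of 4 groups were fitted over 12 arrays with lmFit, and contrasts tested with eBayes, two-sided, adjusted by the Benjamini-Hochberg method. Probes were also fitted singly, adjusted over all kept probes. The steps were tested on simulated data. The number of arrays limits the precision. Samples were grouped by title. Replicate numbers are shared by the groups, but no source names them as pairs, and they were not taken as such. Deviations of same-numbered arrays correlated at -0.131 to 0.131, which does not settle whether the numbers pair the arrays. Slide and scan date were not used here.

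The rule named every member, up to 3 genes per pathway list with the lowest p for T3 and for XCT790, and any gene a count of 5 or fewer covers. Members and lists were chosen with earlier results of these data known. Alternatives were the deposited matrix, uncorrected background, median scaling, no or a stricter dim filter (within some group, detection p under 0.01 for each of 3 arrays), averaged probes, every probe, a replicate block, only the groups compared, and each array left out.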

Additional observations from a re-analysis of the deposited data

How the results depend on the processing

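Depth on these arrays is signal over background: Mylip could not be measured and Scarb1 hardly so, and 3 arrays per group limit the precision. Median scaling moved the median of all genes to -0.17 for T3 on top of XCT790, -0.22 for XCT790 on top of T3, -0.27 for both against control and -0.13 for the interaction, and differences are relative to it. It turned the split of calls from 744 higher and 737 lower to 266 and 989 for T3 in mice given XCT790, from 874 and 952 to 289 and 2088 for both against control, from 7 and 2 to 3 and 15 for XCT790 on top of T3, and from 18 and 27 to 8 and 35 for the interaction. The causes of the changes below were not tested.

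Of the 7 genes, T3 against control called 1 in place of 2 with median scaling, no dim filter, the replicate block and only the groups compared, and 1 to 2 with an array left out. XCT790 against control called 2 in place of 1 without background correction, with the deposited matrix, the stricter filter and the mean over probes, 0 with median scaling and no filter, and 0 to 2 with an array left out. Both against control called 1 in place of 2 with no filter, the replicate block and only the groups compared, 3 with median scaling (Nr1h3 added), and 1 to 3 with an array left out. The interaction called 0 to 1 with an array left out.

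Over all genes, median scaling called 942 for T3 against control, 235 for XCT790 against control and 18 for XCT790 in mice given T3. With only the groups compared, XCT790 against control called 250 and XCT790 in mice given T3 called 1. XCT790 in mice given T3 called 17 without background correction and 17 with the matrix. The interaction called 143 without background correction, 141 with the matrix, 27 with no filter and 91 with the stricter filter. With an array left out, calls were 188 to 421 for XCT790 against control, 976 to 1455 for T3 in mice given XCT790, 1 to 9 for XCT790 in mice given T3 and 17 to 99 for the interaction; the lowest of these came without XCT790 replicate 1, XCT790 replicate 2, and replicates 1 and 2 of the combined group, and the 99 without T3 replicate 1.

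The replicate numbers were not taken as pairs. For 6 of 12 arrays the mean correlation of deviations with arrays of other groups was highest for their own number. That count does not settle whether the numbers pair the arrays. Single correlations ran from -0.131 to 0.131 between same-numbered arrays and from -0.185 to 0.229 between others. With the replicate block XCT790 in mice given T3 called 3 genes and the interaction 25, and the Stard4 adjusted p was 0.0589 for T3 and 0.0555 for both against control.

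Every sign change among the 7 genes was of a value that was not called. With median scaling, XCT790 in mice given T3 turned to -0.13 for Srebf2, -0.11 for Insig1, -0.088 for Insig2, -0.23 for Stard4 and -0.22 for Nr1h3, T3 in mice given XCT790 to -0.046 for Scap and -0.20 for Stard4, both against control to -0.32 for Scap and -0.29 for Insig1, and XCT790 against control to -0.037 for Nr1h3. With the mean over probes, Scap was at 0.17 for XCT790 in mice given T3 and 0.18 for the interaction, and Nr1h3 at 0.042 for T3, -0.057 for XCT790 and -0.28 for XCT790 in mice given T3.

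With an array left out, values straddled 0 as follows. XCT790 against control ran from -0.035 to 0.36 for Srebf2 and -0.069 to 0.084 for Nr1h3. Both against control ran from -0.12 to 0.13 for Scap and -0.0038 to 0.084 for Insig1. T3 in mice given XCT790 ran from -0.0056 to 0.13 for Stard4 and -0.12 to 0.075 for Scarb1. XCT790 in mice given T3 ran from -0.043 to 0.44 for Insig2, -0.16 to 0.10 for Stard4 and -0.071 to 0.082 for Nr1h3. The interaction ran from -0.22 to 0.17 for Srebf2, -0.18 to 0.10 for Scap, -0.032 to 0.19 for Scarb1 and -0.081 to 0.073 for Nr1h3.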
